A study of Homo sapiens with 9 samples.

Results

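Enzymes of cholesterol synthesis and the genes of their SREBP2 feedback were followed in HepG2, a human hepatic tumour line in wide laboratory use. The gene set held HMGCS1, IDI1, FDPS, SQLE, LSS, DHCR7, INSIG1, SREBF2 and FDFT1. Members were all probe sets that the array annotation gives to exactly 1 of these symbols. They came to 18 probe sets of 8 genes, among 22215 probe sets that are not array controls. FDFT1 was not analysed here. Expression was measured on 9 Affymetrix arrays, 3 for each of the treatments. These were vehicle, T3 (triiodothyronine, the active thyroid hormone) at 10 nM and GC-1 at 10 nM, each for 24 h. All groups were kept during treatment in medium with serum depleted of thyroid hormone. GC-1, or sobetirome, is a synthetic agonist with preference for the beta form of the thyroid hormone receptor. Compared with T3 it carries methyl and isopropyl groups where T3 has iodine, a methylene bridge instead of the ether oxygen, and an oxyacetic acid instead of the amino acid side chain. The series asks whether both ligands regulate the same genes.

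Cells build cholesterol from acetyl-CoA through mevalonate, isoprenoids and squalene. The transcription factor SREBP2, encoded by SREBF2, switches the enzymes of this route on together when membrane sterol is low. When sterol is plentiful, INSIG proteins hold SREBP2 and its escort SCAP in the endoplasmic reticulum, and the genes fall silent. INSIG1 is itself a target of SREBP2, so its messenger RNA rises and falls with the enzymes. In liver, thyroid hormone is known for lowering blood cholesterol, with effects on its uptake, synthesis and excretion.

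Not every member window with a searched motif is shown, and another DHCR7 window, with CCAAT, is left out. The stretches below, upstream of members, are a selection, and each holds a searched motif. They come from RefSeq (GRCh38.p14), run 5′ to 3′ on the gene's strand, and carry the motifs in capitals. Searched on both strands of the 250 bases before each start were TCACNCCAC, an SREBP element, CCAAT, the box bound by NF-Y, AGGTCA, the core recognition site of the thyroid hormone receptor, and a spaced direct repeat of that core, which contains it. CCAAT appears as ATTGG and the core site as TGACCT when read on the opposite strand.
SREBF2, chr22:41832957-41833018, plus strand: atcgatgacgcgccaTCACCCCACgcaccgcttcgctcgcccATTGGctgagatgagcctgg
FDPS, chr1:155308675-155308834, plus strand: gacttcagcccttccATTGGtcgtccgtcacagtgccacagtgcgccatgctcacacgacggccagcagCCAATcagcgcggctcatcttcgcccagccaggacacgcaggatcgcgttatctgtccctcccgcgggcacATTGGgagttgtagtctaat
INSIG1, chr7:155297693-155297727, plus strand: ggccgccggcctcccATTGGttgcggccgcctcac
DHCR7, chr11:71449063-71449098, minus strand: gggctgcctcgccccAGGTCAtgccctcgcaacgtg

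Sequence windows were on hand for 7 member genes, 11 windows in all because some genes have several starts. The SREBP element was found in 1 of them, that of SREBF2, and in 0.883% of 35116 windows of all genes. CCAAT was found in 8 of the 11, with at least 1 window in each of the 7 genes, and in 32.0% of all windows. The core site was found in 1 member window, of DHCR7, and in 12.1% of all windows, while the direct repeat was in none of the 11 and in 5 windows of the whole table. A match describes letters in a window and not a bound site. Other forms of the SREBP element were not searched, so a window without a match may still hold another form.

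Of 8 known thyroid hormone targets listed as a check, 7 were called higher with each ligand. These were G6PC1, PCK1, CPT1A, KLF9, ANGPTL4, ANGPTL8 and DIO1, and the list's median log2 difference was 1.24 with T3 and 1.07 with GC-1. Over all probe sets 4.0% were called higher with T3 and 1.81% with GC-1. The list was chosen with earlier results of these data known, so it is not an independent check. THRB, the receptor gene, was the member that did not pass (adjusted p = 0.655 and 0.306, limma). Array medians lay between 7.02 and 7.06 on the log2 scale. T3 replicates 1 and 2 stood apart from the other 7 arrays on the second principal component, at -14.6 and -11.8 against 0.36 to 8.30, and their interquartile ranges were wider, 2.99 and 2.97 against 2.83 to 2.88. For several values below, but not all, the result without these 2 arrays is also given. Hepatocyte markers were bright, with ALB at 14.4 and APOB at 13.5 in vehicle, and 9 of 10 listed were measured. Among them APOB was higher with T3 and KRT18 lower with both ligands. Of 15 measured markers of endothelial, leukocyte, stromal or other epithelial cells, SFN alone was called, lower with both ligands. In vehicle LYZ, EPCAM, SFN, ACTA2 and COL1A1 were bright, at 12.5, 11.8, 11.2, 10.2 and 9.19. CD3E and DCN lay near the array medians, at 7.07 and 7.24. CDH5, PTPRC and COL3A1 lay at 4.83, 4.88 and 5.19, and the others from 5.29 (KDR) to 6.80 (PDGFRB). The part of these markers in the results below was not tested.

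None of the 18 probe sets changed with T3, with GC-1, or between the ligands at a limma p under 0.05 after Benjamini-Hochberg adjustment over all probe sets. The same threshold called 5.5% of all probe sets for T3, 2.8% for GC-1 and 0.0% for GC-1 against T3. With unadjusted p under 0.05 there were 4 member probe sets for T3, 2 for GC-1 and 2 between the ligands, or 21.1%, 15.9% and 14.1% of all probe sets. Every 95% interval lay within 1.5-fold either way in all 3 comparisons, as did 98.6%, 98.9% and 99.8% of intervals over all probe sets. The T3 and GC-1 comparisons share the vehicle arrays, so their values are given side by side. For T3, 17 of the 18 intervals lay within that margin without T3 replicate 2, without T3 replicates 1 and 2 together, or with the interquartile range of the array as a covariate. For T3 the far ends of the intervals ran from 1.07-fold to 1.44-fold, with a median of 1.15-fold. For GC-1 they ran from 1.09-fold to 1.25-fold. The median log2 difference of the 18 was 0.00 with T3 and -0.04 with GC-1, beside a median near 0 over all probe sets. The labels do not say that replicates were separate cultures, so p-values here reflect the spread of these 9 samples alone, and that spread may be technical.

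**Figure D1:**
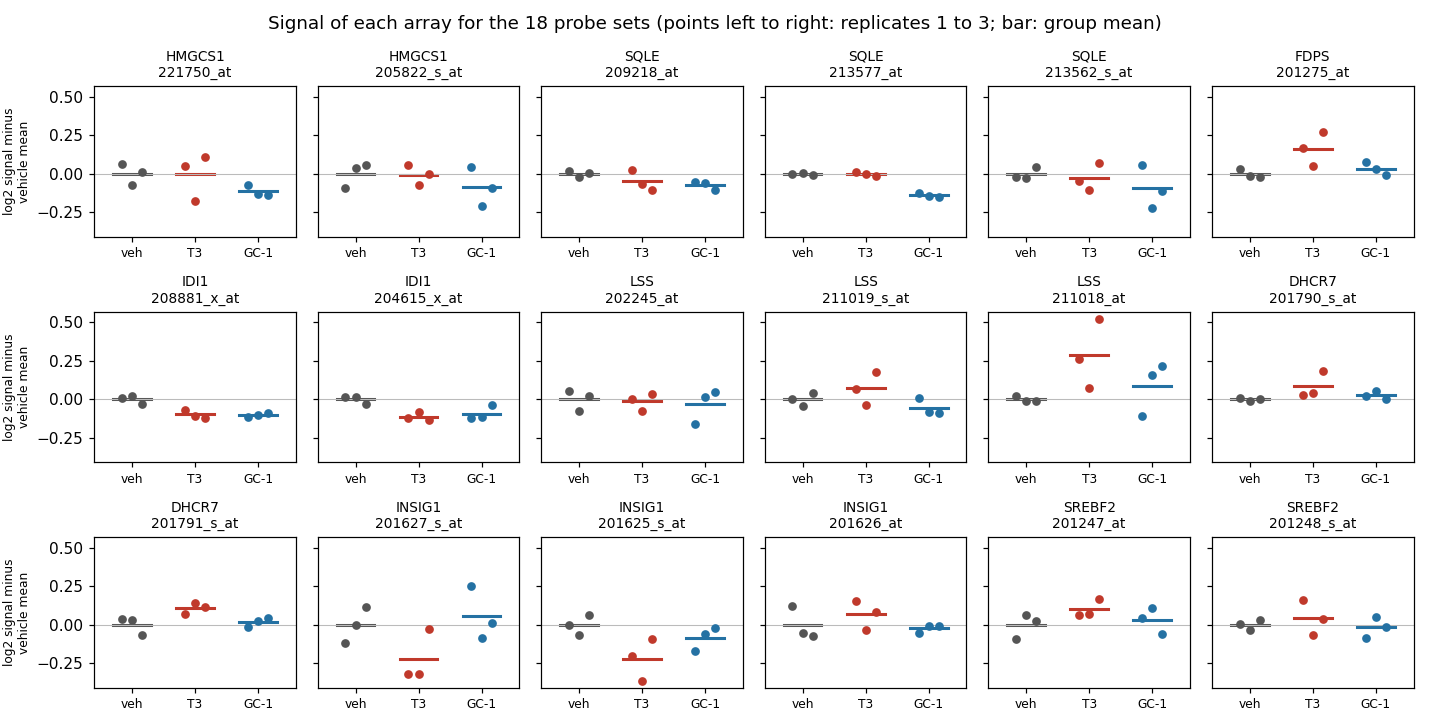
Log2 signal of each array minus the vehicle mean (vertical axis) for the 18 probe sets, with vehicle, T3 and GC-1 side by side; points are replicates 1 to 3 from left to right and bars are group means of 3 arrays. Both IDI1 probe sets lie below vehicle on all ligand arrays, and T3 replicate 3 stands highest in LSS 211018_at and FDPS.

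The first enzymes of the route, from HMG-CoA to farnesyl diphosphate, are HMGCS1, IDI1 and FDPS. HMGCS1 makes HMG-CoA, the precursor of mevalonate. Its probe set 221750_at read 10.73, 10.60 and 10.68 in vehicle, 10.72, 10.50 and 10.78 with T3, and 10.60, 10.54 and 10.54 with GC-1. The T3 arrays straddled the vehicle arrays, and the GC-1 arrays touched only the lowest of them. The log2 difference was 0.00 ± 0.07 (SE, n = 3 per group) for T3 and -0.11 ± 0.07 for GC-1 (adjusted p = 0.982 and 0.506, limma). The second probe set, 205822_s_at, gave -0.01 and -0.09, so both probe sets gave estimates of similar size.

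IDI1, the isomerase that balances the isoprenoid building blocks, was the one member whose ligand arrays all lay below all vehicle arrays on every one of its probe sets. Probe set 208881_x_at read 11.79, 11.81 and 11.76 in vehicle, 11.72, 11.68 and 11.67 with T3, and 11.67, 11.68 and 11.70 with GC-1. The other, 204615_x_at, read 11.48, 11.48 and 11.43 in vehicle, 11.34, 11.38 and 11.33 with T3, and 11.34, 11.35 and 11.43 with GC-1. Its lowest vehicle array, at 11.431, and its highest GC-1 array, at 11.426, nearly touched. The differences between ligands and vehicle were small. For the mean of both ligands they came to -0.10 ± 0.04 on each probe set, with adjusted p of 0.186 and 0.204 in limma, about 1.07-fold. Complete separation of the 6 ligand arrays from the 3 vehicle arrays was seen in 12.3% of all probe sets, 6.07% lower, and in 2 of the 18, both lower. Limma called 5.53% of all probe sets for the ligand mean. With the trend and robust options of eBayes both probe sets passed (adjusted p = 0.0237 and 0.0408). The x in their names marks a probe set type whose probes can bind several transcripts, and the 2 may share them.

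FDPS, which joins isoprenoid units into farnesyl diphosphate, had 1 probe set. It read 11.68, 11.63 and 11.62 in vehicle, 11.81, 11.69 and 11.92 with T3, and 11.72, 11.68 and 11.63 with GC-1. All T3 arrays were above all vehicle arrays, while the GC-1 arrays overlapped them. The T3 difference was 0.16 ± 0.06, or 1.12-fold (adjusted p = 0.152), and that of GC-1 0.03 ± 0.06 (adjusted p = 0.859). T3 replicate 3 was the highest of the 9 arrays. Without T3 replicates 1 and 2 the difference was 0.27 (adjusted p = 0.0376), a fit that takes the lone T3 array to vary like the other groups, and without T3 replicate 3 it was 0.11 (adjusted p = 0.254). It also passed with the trend and robust options (adjusted p = 0.0253). With the interquartile range of the array as a covariate the difference was 0.27 and passed (adjusted p = 0.0472). Interquartile ranges were widest in T3 replicates 1 and 2, so the covariate fit is not separate from leaving those arrays out.

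The later enzymes carry squalene to cholesterol. SQLE, squalene epoxidase, is a rate-limiting step of this stretch and was measured by 3 probe sets. Probe set 213577_at was the steadiest of all members, at 10.91, 10.91 and 10.90 in vehicle and 10.92, 10.91 and 10.89 with T3. The GC-1 arrays read 10.78, 10.76 and 10.76, below every other array. GC-1 minus vehicle was -0.14 ± 0.04, or 1.10-fold lower, with an adjusted p of 0.135. It was the smallest adjusted p of any member with GC-1. It passed with dim probe sets left out of the fit (adjusted p = 0.0283), with the trend and robust options (0.0190) and with array weights (adjusted p = 0.0466). Probe sets 209218_at and 213562_s_at gave -0.07 and -0.09 for GC-1 and -0.05 and -0.03 for T3. All 3 estimates were below 0 with each ligand, and differences between the probe sets were not tested.

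LSS, lanosterol synthase, closes squalene epoxide into the first sterol. Its brightest probe set, 202245_at, read between 10.33 and 10.46 in vehicle, 10.33 and 10.44 with T3 and 10.25 and 10.45 with GC-1, with differences of -0.01 and -0.03. The dimmest, 211018_at, read 6.51, 6.48 and 6.48 in vehicle, 6.75, 6.56 and 7.02 with T3, and 6.38, 6.65 and 6.71 with GC-1. There the T3 arrays lay above vehicle, spread over a wider range (SD 0.23 against 0.02). The T3 difference was 0.28 ± 0.11 (adjusted p = 0.161), the largest of any member, and the interval reached 1.44-fold. This probe set and 211019_s_at lay below the array medians, where RMA signals are compressed and a change may be understated. Without T3 replicates 1 and 2 it was 0.52 (adjusted p = 0.0277), where the interval passed 1.5-fold, and without T3 replicate 3 it was 0.17 (adjusted p = 0.316). The third, 211019_s_at, gave 0.07 for T3, 0.18 without T3 replicates 1 and 2 and 0.02 without T3 replicate 3, and -0.05 for GC-1.

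DHCR7 catalyses the last reduction to cholesterol. Probe set 201791_s_at read 9.76, 9.75 and 9.65 in vehicle, 9.79, 9.86 and 9.83 with T3, and 9.70, 9.74 and 9.77 with GC-1. On this probe set and on 201790_s_at every T3 array was above every vehicle array. The T3 differences were 0.11 ± 0.05 and 0.08 ± 0.05 (adjusted p = 0.241 and 0.404), and those of GC-1 0.02 and 0.03. For 201790_s_at, which read 10.41, 10.42 and 10.56 with T3, the T3 difference was 0.04 without T3 replicate 3 (adjusted p = 0.672) and 0.18 without T3 replicates 1 and 2 (adjusted p = 0.0971). Over the whole set, T3 arrays did not overlap vehicle on 7 probe sets, 4 higher and 3 lower, where 24.9% of all probe sets showed no overlap, 12.5% higher and 12.4% lower. For GC-1 there were 4, all lower, against 26.5% of all probe sets and 15.6% lower.

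**Figure D2:**
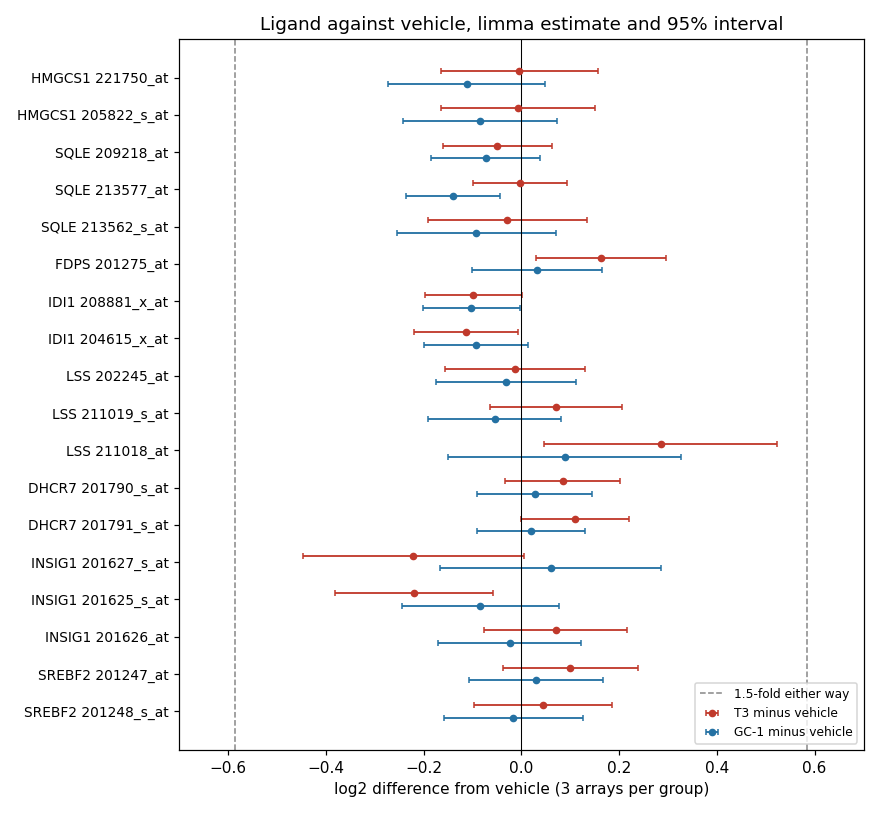
Log2 difference from vehicle (horizontal axis) with its 95% interval from limma for T3 and for GC-1, 3 arrays per group, 1 row per probe set; dashed lines mark 1.5-fold either way. All intervals lie inside the lines, and the widest belong to LSS 211018_at and INSIG1 201627_s_at.

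The feedback genes read as follows. INSIG1, the sterol-regulated anchor of the SREBP escort, was dim. Its 3 probe sets lay between 4.98 and 6.29, also below the array medians. Probe set 201625_s_at read 5.83, 5.76 and 5.89 in vehicle, 5.62, 5.46 and 5.74 with T3, and 5.66, 5.77 and 5.81 with GC-1. Each T3 array was below each vehicle array, and GC-1 arrays overlapped them. The T3 difference was -0.22 ± 0.07, or 1.16-fold lower, with an adjusted p of 0.114, the smallest of any member. It rested on T3 replicates 1 and 2. Without both the difference was -0.09 (adjusted p = 0.518), and without T3 replicate 3 it was -0.28 (adjusted p = 0.0421). It also passed with array weights (-0.26, adjusted p = 0.0418).

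INSIG1 probe set 201627_s_at read 5.92, 6.04 and 6.16 in vehicle, 5.72, 5.72 and 6.01 with T3, and 6.29, 5.95 and 6.05 with GC-1. Here T3 replicate 3 lay among the vehicle arrays and replicates 1 and 2 below them. T3 minus vehicle was -0.22 ± 0.10 (adjusted p = 0.248), -0.03 without T3 replicates 1 and 2 (adjusted p = 0.924), 0.02 with the interquartile range as a covariate (adjusted p = 0.934) and -0.32 without T3 replicate 3 (adjusted p = 0.0894). The third probe set, 201626_at, which lay between 4.98 and 5.21, pointed the other way with T3, at 0.07 ± 0.07. The 3 probe sets of this gene therefore gave no common direction.

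SREBF2 encodes SREBP2 itself. Probe set 201247_at read 8.39, 8.54 and 8.50 in vehicle, 8.54, 8.55 and 8.64 with T3, and 8.52, 8.59 and 8.42 with GC-1. The groups overlapped, with T3 in the upper part of the range. The T3 difference was 0.10 ± 0.06 (adjusted p = 0.400) and that of GC-1 0.03 ± 0.06 (adjusted p = 0.876). The other probe set, 201248_s_at, gave 0.04 and -0.02, and the intervals of both ended within 1.18-fold for T3 and 1.12-fold for GC-1.

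Of the list from acetoacetyl-CoA to squalene 8 of 11 genes were measured, each by its brightest probe set, and none passed with either ligand. The median log2 difference was -0.02 with T3 and -0.06 with GC-1, and GGPS1, which makes the longer isoprenoid geranylgeranyl diphosphate, stood at 0.16 and 0.12. Of the list from squalene to cholesterol 10 of 12 were measured and none passed, with medians of 0.07 and 0.02. MSMO1, a sterol demethylase, stood at 0.13 and 0.07, HSD17B7 at 0.17 and 0.00, and NSDHL at 0.11 and 0.05, both enzymes of the same demethylation. Limma's trend and robust options called 2 genes in each of these lists for T3 and none for GC-1. The same options raised the calls over all 22215 probe sets from 1222 to 1957 for T3 and from 622 to 1347 for GC-1.

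INSIG2 was the single gene called among 10 measured of 11 that process or degrade SREBP. It was called for T3 and for the ligand mean, where 5.5% and 5.53% of all probe sets were called. INSIG2 encodes the second anchor of the SREBP escort, which is not driven by SREBP2 in the way INSIG1 is. It read 10.62, 10.72 and 10.60 in vehicle, 11.00, 10.99 and 10.93 with T3, and 10.93, 10.82 and 10.81 with GC-1. Every ligand array lay above every vehicle array. INSIG2 rose 1.25-fold with T3 (0.32 ± 0.05, adjusted p = 0.00515), a call lost without T3 replicates 1 and 2 together (0.29, adjusted p = 0.0545). With GC-1 the difference was 0.20 ± 0.05 (adjusted p = 0.0844), which passed after quantile normalization (adjusted p = 0.0347). Over both ligands it was 0.26 ± 0.05 (adjusted p = 0.00732), with no call without vehicle replicate 1 (adjusted p = 0.0522) or 3 (adjusted p = 0.0579). VCP and MBTPS1, the extraction ATPase and the first protease of SREBP cleavage, stood at 0.12 and 0.11 with T3. MBTPS2, the second protease, is named after its values were seen. It stood at -0.17 ± 0.07 with T3, all T3 arrays below all vehicle arrays (adjusted p = 0.171), at 0.05 with GC-1, and at 0.22 ± 0.07 for GC-1 minus T3 (adjusted p = 0.236). The median of this list was 0.09 with T3 and 0.03 with GC-1.

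Of 11 genes of sterol uptake, transfer and lipid synthesis known as targets of SREBP 7 were measured, and none passed. TMEM97, a regulator of the cholesterol transporter NPC1, stood at -0.09 with T3 and -0.17 with GC-1. ACACA, acetyl-CoA carboxylase, stood at 0.11 and 0.09, and NPC1 itself at 0.11 and 0.05. The list's medians were 0.08 and 0.00.

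Genes that handle surplus sterol, 8 of 10 measured, held the remaining calls. They were ABCG5 with T3, and ABCG5 and SOAT2 both with GC-1 and for the ligand mean. The same threshold called 5.5% of all probe sets for T3, 2.8% for GC-1 and 5.53% for the ligand mean. ABCG5, a partner in the sterol exporter of the canalicular membrane, read 8.86, 8.85 and 8.83 in vehicle, 9.22, 9.15 and 9.20 with T3, and 9.01, 9.12 and 9.05 with GC-1. All ligand arrays were above all vehicle arrays. ABCG5 rose 1.27-fold with T3 (0.35 ± 0.05, adjusted p = 0.00206) and 1.16-fold with GC-1 (0.22 ± 0.05, adjusted p = 0.0427). The GC-1 call was lost without any 1 array of vehicle, of GC-1, or T3 replicate 1 or 2 (adjusted p from 0.0531 to 0.184), with arrays centred on their medians (0.0609), with the interquartile range as a covariate (0.0533) and with the replicate block (adjusted p = 0.120).

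SOAT2, which esterifies cholesterol in hepatocytes and intestine, read 9.11, 9.07 and 9.09 in vehicle, 8.93, 8.88 and 8.90 with T3, and 8.80, 8.93 and 8.82 with GC-1. All ligand arrays were below all vehicle arrays. SOAT2 fell with GC-1 (-0.25 ± 0.05, 1.19-fold, adjusted p = 0.0282), and stood at -0.19 ± 0.05 with T3 (adjusted p = 0.0581). The GC-1 call was lost without any single vehicle array, without GC-1 replicate 1 or 3 (adjusted p from 0.0871 to 0.122) and with the replicate block (adjusted p = 0.0845). NR1H3, the sterol receptor LXR alpha, stood at 0.10 with T3 and 0.08 with GC-1, and the list's medians were -0.05 and -0.08.

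**Figure D3:**
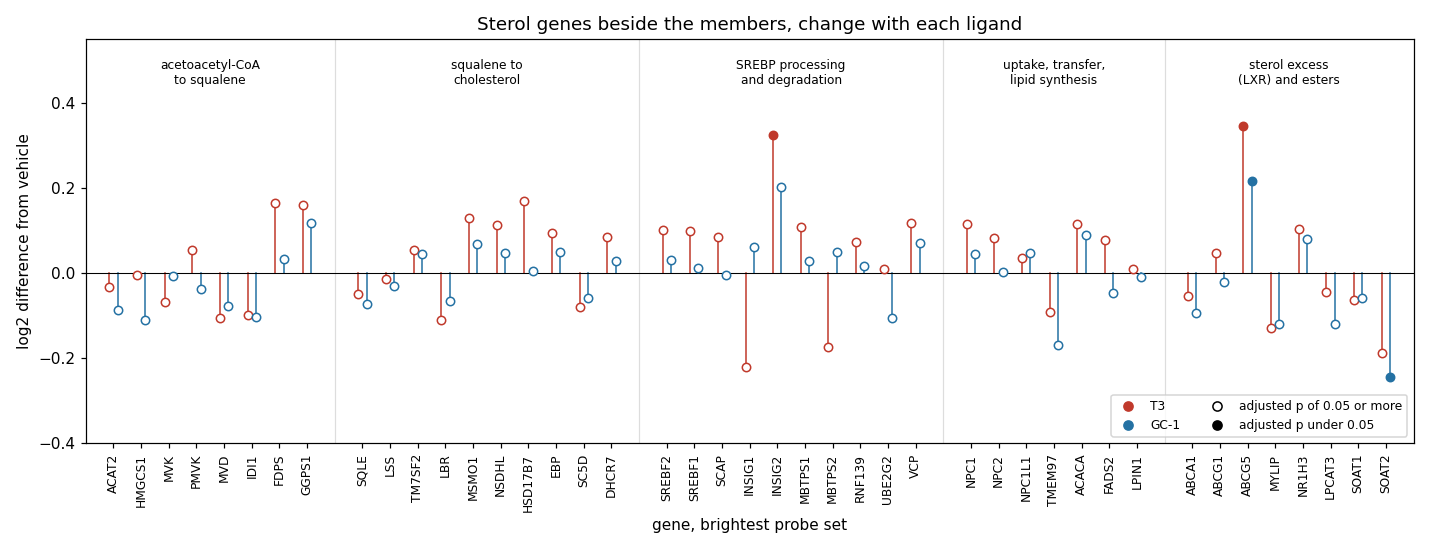
Log2 difference from vehicle (vertical axis) with T3 and with GC-1 for the measured genes of 5 sterol lists, each gene by its brightest probe set, 3 arrays per group; filled points have an adjusted p under 0.05 in limma. The filled points are INSIG2 with T3, ABCG5 with both ligands and SOAT2 with GC-1.

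The ligands were also set against each other at the matched dose and time, 1 pair of compounds. No member probe set was called (adjusted p from 0.244 to 0.974, limma), where 0.0% of all 22215 probe sets were called. The lack of calls is therefore not particular to the members. SQLE 213577_at, whose values are given above, stood at -0.14 ± 0.04 for GC-1 minus T3 (95% interval -0.23 to -0.04, adjusted p = 0.244), with all GC-1 arrays below all T3 arrays. DHCR7 201791_s_at was the other probe set without overlap, at -0.09 (interval -0.20 to 0.02), where 18.0% of all probe sets had none and 10.1% were lower with GC-1. INSIG1 201627_s_at had the largest difference, 0.28 ± 0.10 (interval 0.05 to 0.51, adjusted p = 0.281). That value was 0.09 without T3 replicates 1 and 2 and 0.38 without T3 replicate 3 (adjusted p = 0.0731). With the interquartile range as a covariate its sign changed, to -0.06. FDPS stood at -0.13 (interval -0.26 to 0.00), at -0.24 without T3 replicates 1 and 2 and at -0.08 without T3 replicate 3. LSS 211018_at stood at -0.20 (interval -0.44 to 0.04), at -0.44 without T3 replicates 1 and 2, at -0.30 without T3 replicate 2, at -0.08 without T3 replicate 3 and at -0.10 without GC-1 replicate 1. Neither passed in any of these fits (adjusted p from 0.251 to 0.745).

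GC-1 read below T3 on 15 of the 18 probe sets, with a median difference of -0.07, while GC-1 read below T3 on 52.0% of all probe sets. The exceptions were IDI1 204615_x_at and INSIG1 201627_s_at and 201625_s_at. Members share arrays, so these signs are not independent of each other. Each interval lay within 1.5-fold, the margin used for calling the ligands alike on a probe set. It reached 1.42-fold for INSIG1 201627_s_at and at least 1.07-fold for every member, so differences between the ligands inside these bounds remain possible. Only the intervals of SQLE 213577_at and INSIG1 201627_s_at left out 0, and neither probe set was called after adjustment. Without T3 replicate 3 or without GC-1 replicate 2, 17 of the 18 intervals stayed within the margin, as they did without T3 replicates 1 and 2 together or with the interquartile range as a covariate.

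**Figure D4:**
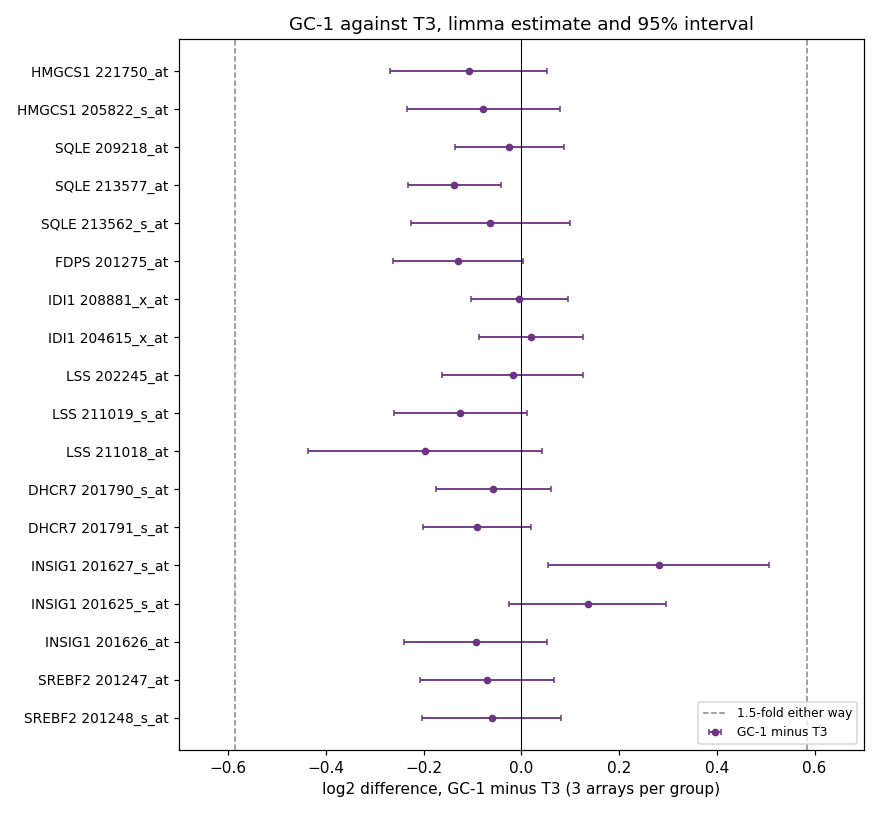
Log2 difference GC-1 minus T3 (horizontal axis) with its 95% interval from limma, 3 arrays per group, 1 row per probe set; dashed lines mark 1.5-fold either way. Most points lie left of 0, and the interval of INSIG1 201627_s_at reaches farthest to the right, to 0.51.

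Arrays differed in how they read the members. T3 replicate 3 was the highest of the 9 arrays on 7 of the 18 probe sets and the lowest on 3, against 16.5% and 17.6% of all probe sets. T3 replicate 1 was the highest on 4, against 14.1% of all probe sets. The 3 GC-1 arrays together were the highest on 1, against 9.96%, 7.74% and 8.54% of all probe sets for replicates 1, 2 and 3. Averaged over the 18, T3 replicates 1, 2 and 3 stood 0.02, -0.06 and 0.07 from the vehicle mean, so the T3 arrays lay on both sides of it. GC-1 replicates 1, 2 and 3 stood at -0.03, -0.04 and -0.03.

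The mean profile of the 6 measured enzymes over the 9 arrays was compared with every other gene as a description. The genes with the most similar profiles among 11955 were CIB1, SMARCE1, HSBP1, ARID3B and CKLF. The highest-ranked gene of the sterol lists was ACAT2, which makes the acetoacetyl-CoA used by HMGCS1, at rank 164. FADS2 and MSMO1 followed at ranks 362 and 751, and INSIG2 stood at rank 6853. The points share the arrays and their scaling, and the enzyme profile itself spanned only -0.05 to 0.07 on the log2 scale.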

How the data were processed

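RNA of 9 HepG2 samples was measured, 3 each of vehicle, T3 and GC-1, grouped by sample title. The authors deposited log2 signals. The submitters' processing notes name RMA without a version. The log base was inferred from the range of the values, 3.15 to 14.5. Scanner files were not used here, so detection and scan batches were not examined. After 62 array controls were left out, limma 3.58.1 in R 4.3.3 (lmFit, eBayes, two-sided) was fitted to all 22215 probe sets and 9 arrays, with Benjamini-Hochberg adjustment over all probe sets of a comparison. The fit was tested on simulated data. Annotation gave 1 symbol for 19064 probe sets. A list gene was represented by its brightest probe set.

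Members and lists were chosen with earlier results of these data known. Named were all member probe sets, list genes called in any comparison, and, in each list, at most 3 further genes ranked by p for the ligand mean. The 5 genes most like the enzymes were ranked by Pearson correlation over the arrays. Same-numbered arrays did not deviate together (correlations from -0.26 to 0.08), so replicate numbers were not treated as pairs. Differently numbered arrays of different groups ran from -0.30 (T3 replicate 2 with GC-1 replicate 1) to 0.29 (T3 replicate 3 with GC-1 replicate 1).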

Additional observations from a re-analysis of the deposited data

How the results depend on the processing

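No member was called as reported, so no called direction could reverse. Signs of uncalled differences changed in 0 to 5 of the 18 probe sets per alternative for T3, 0 to 3 for GC-1 and 0 to 4 for GC-1 against T3, the most for T3 and between the ligands with the interquartile range as a covariate. The counts of member probe sets called, 0 in each comparison, became 1 for T3 with the trend and robust options (FDPS), array weights (INSIG1) or the interquartile range as a covariate (FDPS), and 2 without T3 replicates 1 and 2 together (FDPS and LSS). Leaving out single arrays gave 0 to 1 for T3. For GC-1 the count became 1 with dim probe sets left out, the trend and robust options or array weights, each time SQLE. For the mean of both ligands it became 2 with the trend and robust options and 1 without T3 replicates 1 and 2 together. By gene, 0 became 1 for T3 with those settings or the covariate, and 1 for the ligand mean with the trend and robust options.

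Over all probe sets, T3 called 1222 as reported, 1957 with the trend and robust options, 2084 with the covariate, 753 with the groups of the contrast alone and 661 to 1356 without single arrays. GC-1 called 622, 1236 without dim probe sets, 1347 with the trend and robust options, 1435 with array weights, 1061 with only its own groups and also 1061 without T3 replicates 1 and 2, and 274 to 1272 without single arrays. The ligand mean called 1228, 1966 without dim probe sets, 2061 with the trend and robust options, 2629 with the covariate, 2468 without T3 replicates 1 and 2, and 582 to 1405 without single arrays. GC-1 against T3 called 0, 3 without dim probe sets, 22 with the trend and robust options and 0 to 338 without single arrays, the highest without T3 replicate 3. The replicate block gave 773 for T3, 347 for GC-1 and 745 for the ligand mean; it called no member, and it changed the counts of the surplus sterol list from 2 to 0 for GC-1 and from 2 to 1 for the ligand mean.

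In the route to squalene, 0 genes called became 2 for T3 with the trend and robust options and 1 with the covariate or without T3 replicates 1 and 2, and for the ligand mean 1 without dim probe sets and 2 with the trend and robust options. From squalene to cholesterol, 0 became 1 without dim probe sets and 2 with the trend and robust options for T3. In SREBP processing, 1 for T3 became 0 without T3 replicates 1 and 2, and 0 for GC-1 became 1 with gene means over probe sets, quantile normalization, no dim probe sets, the trend and robust options or array weights; 1 for the ligand mean ranged from 0 to 1 without single arrays. In uptake and transfer, 0 became 1 with gene means or the trend and robust options for GC-1, and with these or the covariate for the ligand mean. In the surplus sterol list, 1 for T3 became 2 with gene means, quantile normalization, no dim probe sets, the trend and robust options or the covariate. There 2 for GC-1 became 1 with median centring or the covariate, and single arrays left out gave 0 to 2 for GC-1 and 1 to 2 for the ligand mean. Thyroid hormone targets differing between the ligands, 0 as reported, became 1 without dim probe sets or with the trend and robust options, and 0 to 3 without single arrays. The causes were not tested. With 3 arrays a group the median half-width of a member's 95% interval was 0.14 on the log2 scale, which limits what these arrays can show.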
